A study of Mus musculus with 15 samples.

Results

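Collagen genes were taken as the genes whose symbol in the deposited count table consists of Col, a number, the letter a and a number, such as Col1a1. This rule uses names alone and no measured value. It found 44 of the 26264 genes in the table. Of the 44, 35 had at least 10 counts in total over the 15 libraries. Another 4 had 1 to 9 counts (Col9a2, Col17a1, Col19a1 and Col22a1), and 5 had no count in any library (Col2a1, Col6a4, Col9a1, Col11a1 and Col26a1). A filter on low counts left 24 collagen genes for testing, and the other 11 with at least 10 counts are given as counts. A gene can pass that filter through the libraries of 1 group alone, so the 24 are the collagens with enough reads in these livers and not a full account of the family. Col4a6 and Col8a1 passed it through HFD-338 alone, with 0 and 1 library elsewhere at the cutoff of 1.41 CPM, and had to be high there.

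The livers came from mice of a study on fatty liver disease linked to metabolic dysfunction (MASLD), induced by a high-fat diet. Per the series text, treated mice received resmetirom, which activates thyroid hormone receptor beta, or Gc337, an antisense agent that lowers the protein kinase STK25. By title the libraries fall into 5 groups of 3: SD-NS without HFD in its name, then HFD-NS, then HFD-337, which carries the number of Gc337, then HFD-338, and last HFD-Res, read here as the resmetirom group. What SD, NS and the number in HFD-338 stand for is not spelled out. They give no strain, genotype, sex, age, dose or duration, and they name no group as the control of the antisense agent. Whether each library is a separate animal is not spelled out, so the tests below measure the spread between these samples only.

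Total counts ran from 3873903 to 9797743 per library. Stk25 averaged 46.5 CPM (reads scaled to the same library size) in HFD-NS, 17.5 in HFD-337 and 21.5 in HFD-338, and no library of the last 2 groups reached the lowest of HFD-NS. Summed CPM of 8 hepatocyte markers lay between 94326 and 141594 in the other groups and between 75166 and 84541 in HFD-Res, below every other library. HFD-337 replicate 23 stood apart from replicates 26 and 27 in many collagens and in several cell markers. Its bile duct markers summed to 268 CPM against 87.7 and 115, its red blood cell markers to 847 against 364 and 201, and its myofibroblast markers to 25.4 against 15.2 and 14.8. Results without it are given below for the main collagen calls, values and counts that it changed, though not for every one.

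Collagens are secreted or membrane-bound proteins whose chains wind into a triple helix. Fibrillar collagens, above all types I and III, build the fibres that accumulate as scar in a fibrotic liver, where stellate cells that have become myofibroblasts are the best known source. Type IV chains form the sheet of basement membranes, type VI chains form beaded filaments around cells, and FACIT members (fibril-associated collagens with interrupted triple helices) sit on the surface of fibres. Multiplexins lie in basement membrane zones, and Col18a1, the multiplexin that hepatocytes make, is the precursor of endostatin.

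The sequences below are shown because the results turn on 3 sets of collagens: the scar genes Col1a2 and Col3a1, the pair Col5a3 and Col27a1 that moved apart from them, and the type IV genes that share a start. The first 4 are the 250 bases before the transcription start in RefSeq (build GRCm38.p6), printed on the gene's own strand. They lie at chr6:4505368-4505617 on the plus strand for Col1a2, chr1:45311288-45311537 on the plus strand for Col3a1, chr9:20815068-20815317 on the minus strand for Col5a3, and chr4:63215162-63215411 on the plus strand for Col27a1. Capitals mark matches on either strand to 3 short motifs, which are spelled out after the sequences.
Col1a2: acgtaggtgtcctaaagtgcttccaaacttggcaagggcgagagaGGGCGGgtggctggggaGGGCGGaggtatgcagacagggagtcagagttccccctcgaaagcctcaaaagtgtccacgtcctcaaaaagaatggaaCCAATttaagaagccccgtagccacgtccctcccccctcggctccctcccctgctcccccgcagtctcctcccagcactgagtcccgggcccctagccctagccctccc
Col3a1: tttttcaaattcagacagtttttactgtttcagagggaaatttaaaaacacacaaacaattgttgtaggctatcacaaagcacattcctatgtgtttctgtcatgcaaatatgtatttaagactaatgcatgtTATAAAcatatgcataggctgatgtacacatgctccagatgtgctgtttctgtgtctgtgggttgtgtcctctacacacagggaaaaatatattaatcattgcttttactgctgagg
Col5a3: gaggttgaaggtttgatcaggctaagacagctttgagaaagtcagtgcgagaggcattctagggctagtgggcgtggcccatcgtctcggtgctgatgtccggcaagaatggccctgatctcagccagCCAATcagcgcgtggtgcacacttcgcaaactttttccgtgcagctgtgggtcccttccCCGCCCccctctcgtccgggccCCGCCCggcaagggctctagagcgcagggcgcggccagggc
Col27a1: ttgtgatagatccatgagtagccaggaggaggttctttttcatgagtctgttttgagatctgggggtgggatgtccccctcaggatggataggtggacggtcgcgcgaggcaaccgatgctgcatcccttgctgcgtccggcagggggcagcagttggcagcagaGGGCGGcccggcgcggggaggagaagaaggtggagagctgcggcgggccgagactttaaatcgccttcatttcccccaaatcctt

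CCAAT, the recognition sequence of the factor NF-Y, begins 109 bases before the start of Col1a2 and 122 bases before that of Col5a3. GGGCGG, the core of the GC box of Sp factors (printed as CCGCCC where it lies on the other strand), occurs at 205 and 188 bases before the start of Col1a2 and 85 bases before that of Col27a1, and on the other strand at 63 and 41 bases before that of Col5a3. TATAAA, the core of the TATA box, occurs 117 bases before the annotated start of Col3a1. GENCODE vM21 gives the same start for the full-length transcript and a further one 109 bases downstream, and the counts do not show which start these livers used. None of these matches overlaps another. Over all 32851 windows of this length, 33.8% hold CCAAT, 32.7% hold GGGCGG and 12.4% hold TATAAA. RefSeq windows were matched for 35 of the 44 collagen genes, with 38 windows in all, of which 13 hold CCAAT, 22 hold GGGCGG and 5 hold TATAAA. Genes without an entry are Col1a1, Col2a1, Col4a3, Col5a2, Col9a3, Col12a1, Col14a1, Col22a1 and Col26a1. A match is a run of letters and no measured binding.

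Type IV genes lie as head-to-head pairs. In the deposited annotation (mm39) Col4a1 ends at base 11362826 of chromosome 8 on the minus strand and Col4a2 starts at 11362805 on the plus strand, so that 22 bases belong to exons of both. Col4a4 and Col4a3 on chromosome 1 start 71 bases apart, and Col4a6 and Col4a5 on the X chromosome start 1342 bases apart. The shared stretch is printed on the plus strand from RefSeq, chr8:11312801-11312830 in GRCm38.p6, with the 22 bases transcribed from both strands in capitals.
Col4a2 and Col4a1: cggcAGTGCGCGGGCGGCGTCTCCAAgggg
Reads were counted without strand and for every gene they overlap, so reads in these bases count for both genes. They make up 0.332% of the exon length of Col4a1 and 0.341% of that of Col4a2. Among the other tested collagens none overlaps an exon of another gene.

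Levels were compared between genes per exon length, as TPM (transcript abundance scaled to the same sum in each library), computed from the counts. Col18a1 was the most abundant collagen in every group mean. It averaged 122 ± 9.65 TPM in SD-NS, 186 ± 13.6 in HFD-NS, 142 ± 6.32 in HFD-338, 134 ± 10.1 in HFD-337 and 118 ± 2.52 in HFD-Res (mean ± SD, n = 3, here and below). That was 70.8% of all collagen TPM in SD-NS and 66.3% in HFD-NS, but 31.0% in HFD-338. Col1a1, Col1a2 and Col3a1 together held 3.05% of collagen TPM in SD-NS, 10.1% in HFD-NS, 39.1% in HFD-338, 8.46% in HFD-337 and 7.77% in HFD-Res. The HFD-337 libraries held 14.995%, 5.40% and 4.997%, so their mean was 5.20% without replicate 23.

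Summed over all 44 genes, collagen TPM averaged 172 ± 14.95 in SD-NS, 281 ± 15.3 in HFD-NS, 468 ± 72.6 in HFD-338, 239 ± 44.5 in HFD-337 and 191 ± 7.34 in HFD-Res. Fibrillar genes made up 23.4 ± 3.26 of this in SD-NS, 50.1 ± 9.20 in HFD-NS, 218 ± 53.3 in HFD-338, 78.7 ± 23.3 in HFD-337 and 25.7 ± 2.48 in HFD-Res. Col5a3 was the main part of the fibrillar sum of HFD-337. It averaged 39.3 TPM there and Col27a1 14.97, against 9.60 for Col3a1. Type IV genes summed to 15.7 ± 2.62 TPM in HFD-NS, 38.7 ± 7.82 in HFD-338 but 7.53 ± 5.20 in HFD-337. Type VI genes summed to 8.33 ± 1.72, 39.6 ± 11.8 and 8.87 ± 6.25 in the same order. In HFD-337 replicate 23 was far above the other 2 libraries in both, at 13.5 against 4.34 and 4.72 TPM for type IV and 15.9 against 6.93 and 3.83 for type VI. Without it the means were 4.53 and 5.38 TPM.

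**Figure D1:**
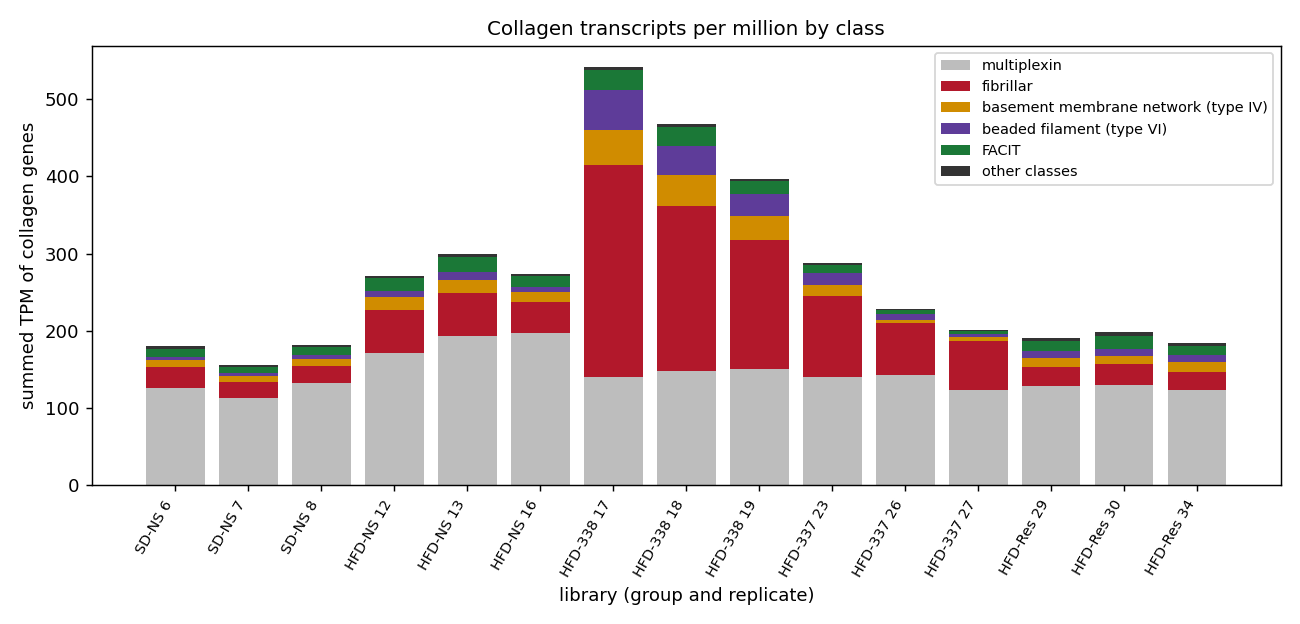
Summed TPM of the collagen genes in each of the 15 libraries, stacked by collagen class, with the group and replicate of each library on the horizontal axis. The multiplexin part, nearly all Col18a1, lies between 113 and 198 TPM, while the fibrillar part is 20.7 to 27.0 TPM in SD-NS libraries and 167 to 274 in HFD-338 libraries.

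The following values for single genes are TMM-scaled CPM, which compare a gene between libraries but not with other genes. A gene was called, and is said to have risen or fallen, at a Benjamini-Hochberg adjusted p under 0.05 in edgeR's quasi-likelihood test, adjusted over all 13189 genes tested. Log2 fold changes (log2FC) are fitted values with their standard error (SE). In bulk liver RNA, fewer cells of a type and less RNA per cell cannot be told apart. Of the 24 tested collagens, 21 were called in at least 1 of 6 comparisons, and Col11a2, Col16a1 and Col20a1 in none.

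**Figure D2:**
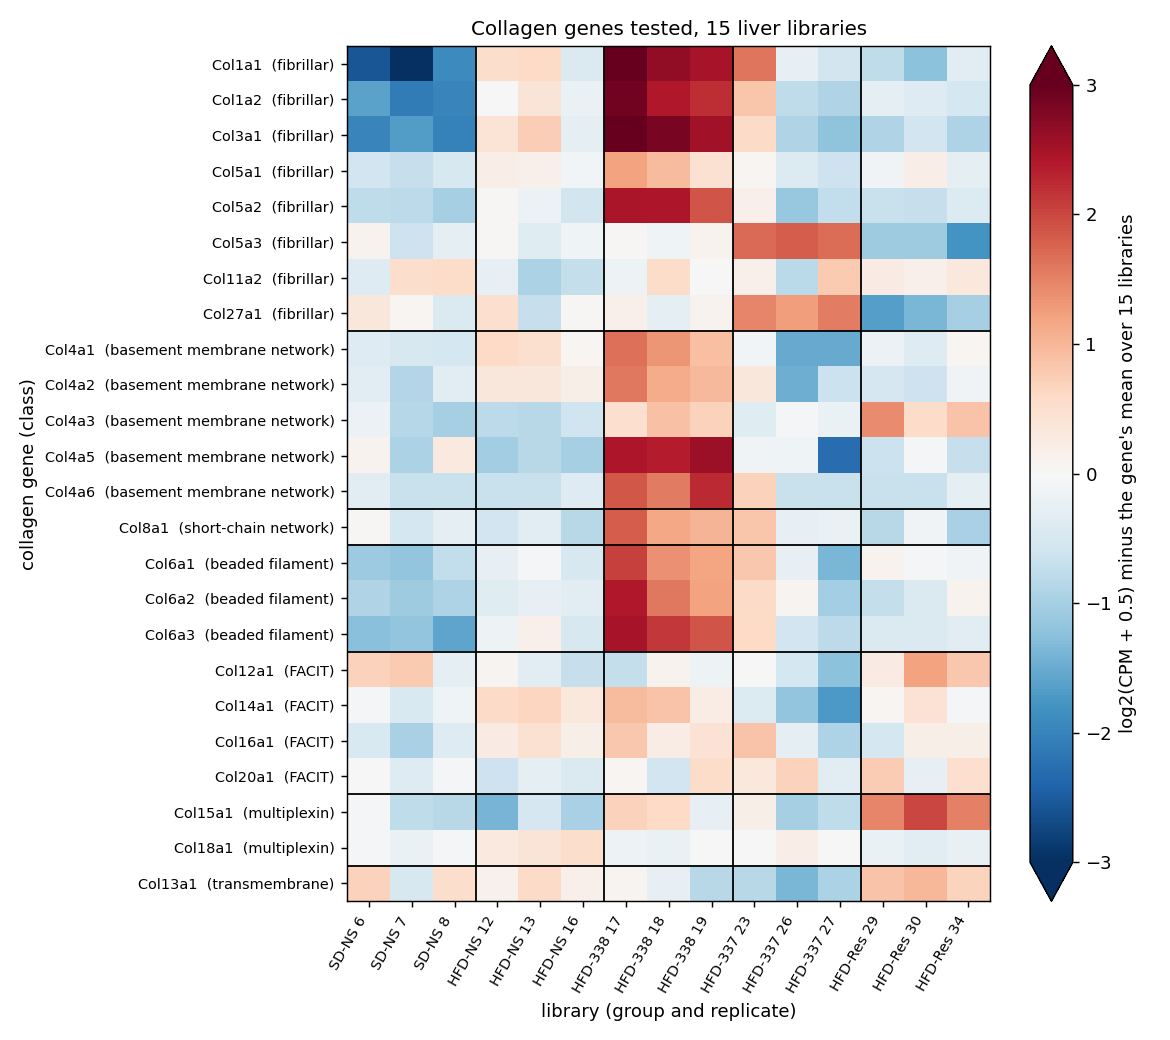
Levels of the 24 tested collagen genes (rows, grouped by class) in the 15 libraries (columns), as log2 of CPM plus 0.5 minus the gene's mean over all libraries. Most fibrillar, type IV and type VI genes are darkest red in the 3 HFD-338 libraries, Col5a3 and Col27a1 in the 3 HFD-337 libraries and Col15a1 in the 3 HFD-Res libraries.

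HFD-NS was set against SD-NS to see how collagens stood in the livers of the high-fat diet group. Here 6 of the 24 tested collagens rose and 0 fell, against 12% of all genes tested that rose and 16.1% that fell. DESeq2 called 8 rises and 0 falls and limma-voom 10 and 1, and at an unadjusted p under 0.05 edgeR gave 10 and 3. Over all genes DESeq2 called 1549 rises and 1813 falls and limma-voom 1735 and 2478. The 24 had a median log2FC of 0.61, and all genes tested had one of -0.02. The 6 were 4 fibrillar genes (Col1a1, Col1a2, Col3a1 and Col5a1), Col6a3 of type VI and the multiplexin Col18a1. None of the 5 type IV and 4 FACIT genes tested was called by edgeR (1 rise in each class by DESeq2; 2 rises and 1 fall in each at an unadjusted p under 0.05).

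Col3a1, the chain of type III collagen (chromosome 1, 45350698 to 45388866 in mm39), was at 8.65, 10.9 and 8.44 CPM in the SD-NS libraries and at 47.6, 60.5 and 29.7 in those of HFD-NS. Every HFD-NS library was above every SD-NS library, and the fitted change was a log2FC of 2.29 (SE 0.503, adjusted p = 0.00689). Col1a1 and Col1a2 encode the chains of type I collagen. Col1a1 (chromosome 11, 94827050 to 94843868) was at 1.60, 0.972 and 2.81 CPM in SD-NS and 17.5, 18.4 and 8.64 for HFD-NS, with a log2FC of 3.12 (SE 0.806, adjusted p = 0.0153). For Col1a2 (chromosome 6, 4505618 to 4541543) the values were 5.99, 4.08 and 4.50 CPM in SD-NS, then 19.4, 25.2 and 16.7 for HFD-NS (log2FC 2.02, SE 0.489, adjusted p = 0.0107). HFD-NS replicate 16 was the lowest of its group for these 3 genes and still above all of SD-NS.

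The other rises were smaller. Col6a3, the large chain of type VI collagen, went from 6.80 ± 1.04 CPM in SD-NS to 16.2 ± 3.67 in HFD-NS (log2FC 1.22, adjusted p = 0.0212). Col5a1, a chain of type V collagen that is built into type I fibres, went from 5.27 ± 0.385 to 8.70 ± 0.881 CPM (log2FC 0.72, adjusted p = 0.0284). Col18a1 rose by a log2FC of 0.50 (SE 0.0970, adjusted p = 0.000865), from 404, 366 and 406 CPM to 515, 548 and 599.8. Type IV genes Col4a1 (log2FC 0.87, adjusted p = 0.0797) and Col4a2 (log2FC 0.81, adjusted p = 0.106) had higher means in HFD-NS without passing the test, as did Col14a1 (log2FC 0.72, adjusted p = 0.0602), Col5a2 (log2FC 0.71, adjusted p = 0.129) and Col16a1 (log2FC 1.09, adjusted p = 0.0743). Lower means that did not pass were those of Col12a1 (log2FC -0.90, adjusted p = 0.0759), Col4a5 (log2FC -1.20, adjusted p = 0.113) and Col11a2 (log2FC -1.23, adjusted p = 0.125).

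Calls of this comparison depended on single SD-NS libraries. Without SD-NS replicate 6 or without replicate 7 only 3 collagens were called, Col3a1, Col1a2 and Col18a1. Col1a1 was then lost with an adjusted p of 0.0640 and 0.0642. Col6a3 was lost without any 1 of the 3 SD-NS libraries or HFD-NS replicate 13 (adjusted p from 0.0581 to 0.0702), and Col5a1 without SD-NS replicates 6 or 7 or HFD-NS replicates 12 or 13 (0.0705 to 0.0996). Myofibroblast markers summed to 7.59 to 11.05 CPM in SD-NS and 14.4 to 18.5 in HFD-NS. Of these, 2 of 8 tested rose, against 12% of all genes. Within this list, Timp1 was at 0 in every SD-NS library and averaged 1.12 CPM in HFD-NS, and Cnn1 was at 0 in all libraries of both groups. Their part in the result was not tested.

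HFD-338 was compared with HFD-NS, which shares the letters HFD. Collagens of several classes were higher in HFD-338: 15 of the 24 tested rose and 1 fell, where 18.9% of all genes tested rose and 17.9% fell. The median log2FC of the 24 was 1.31 and that of all genes 0.00. Without Col4a6 and Col8a1, which had to be high in this group, 13 of 22 rose and the median was 1.08. By class, 5 of 8 fibrillar, 4 of 4 type IV genes other than Col4a6 and 3 of 3 type VI genes rose, together with the multiplexin Col15a1. No FACIT gene (0 of 4) was called by edgeR or DESeq2, nor at an unadjusted p under 0.05, and Col18a1 fell.

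Type I and III collagen showed the highest levels of the study in these libraries. Col3a1 was at 371, 262 and 209 CPM in HFD-338, a mean 6.11 times that of HFD-NS (log2FC 2.61, SE 0.416, adjusted p = 0.000655). Col1a2 was at 145, 103 and 90.6 CPM (log2FC 2.47, SE 0.370, adjusted p = 0.00039), and Col1a1 at 114, 77.7 and 68.3 CPM (log2FC 2.56, SE 0.494, adjusted p = 0.00225). For all 3 genes the lowest HFD-338 library was above the highest library of any other group. HFD-338 replicate 17 had the highest value of each.

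Type V collagen is a minor partner of type I fibres, and 2 of its 3 genes rose. Col5a2 was at 26.2, 25.7 and 17.8 CPM in HFD-338 and 4.55, 3.85 and 2.85 in HFD-NS (log2FC 2.64, SE 0.249, adjusted p = 3.94e-07). Col5a1 was at 19.5, 16.1 and 11.4 CPM, 1.80 times the mean of HFD-NS (log2FC 0.85, adjusted p = 0.00249). Col5a3 was at 42.0, 37.5 and 44.0 CPM, overlapping the 41.8, 31.4 and 37.3 of HFD-NS (log2FC 0.16, SE 0.172, adjusted p = 0.505). Col27a1, a short fibrillar collagen known from cartilage, overlapped as well, at 26.3, 19.4 and 25.7 CPM against 34.2, 14.5 and 24.6.

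Among type IV genes the 2 that encode the common network chains had the smallest log2FC values. Col4a1 was at 87.2, 69.6 and 51.4 CPM in HFD-338 and 41.7, 38.7 and 28.4 in HFD-NS (log2FC 0.94, SE 0.307, adjusted p = 0.0318), and Col4a2 was at 38.0, 27.2 and 24.5 against 15.8, 15.5 and 13.8 (log2FC 1.00, SE 0.296, adjusted p = 0.0184). Both calls were near the threshold. Col4a1 was not called when HFD-NS replicate 12, 13 or 16 or HFD-338 replicate 17 or 18 was left out (adjusted p from 0.0525 to 0.117), nor Col4a2 without HFD-NS replicate 16 (0.0650) or HFD-338 replicate 17 (0.0815).

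Chains of the more restricted type IV networks, known from kidney glomeruli and other epithelia, had larger ones. Col4a5 (chromosome X, 140258415 to 140472231) was at 12.8, 12.1 and 14.004 CPM in HFD-338 and 0.701, 0.869 and 0.738 in HFD-NS (log2FC 4.05, SE 0.414, adjusted p = 1.12e-06). Its values in the other groups went no higher than 2.53 CPM. Its head-to-head neighbour Col4a6 was at 2.39, 1.86 and 3.27 CPM in HFD-338, from 61 counts, against 1 count in HFD-NS. The ratio of these pooled rates was 65.0, a description that rests on 1 count in HFD-NS. With 61 of its 68 counts in HFD-338, it passed the low-count filter through that group, so no test is given for it. Col4a3 was at 3.31, 4.45 and 3.80 CPM in HFD-338 and 1.05, 0.993 and 1.26 in HFD-NS (log2FC 1.78, SE 0.326, adjusted p = 0.000327).

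**Figure D3:**
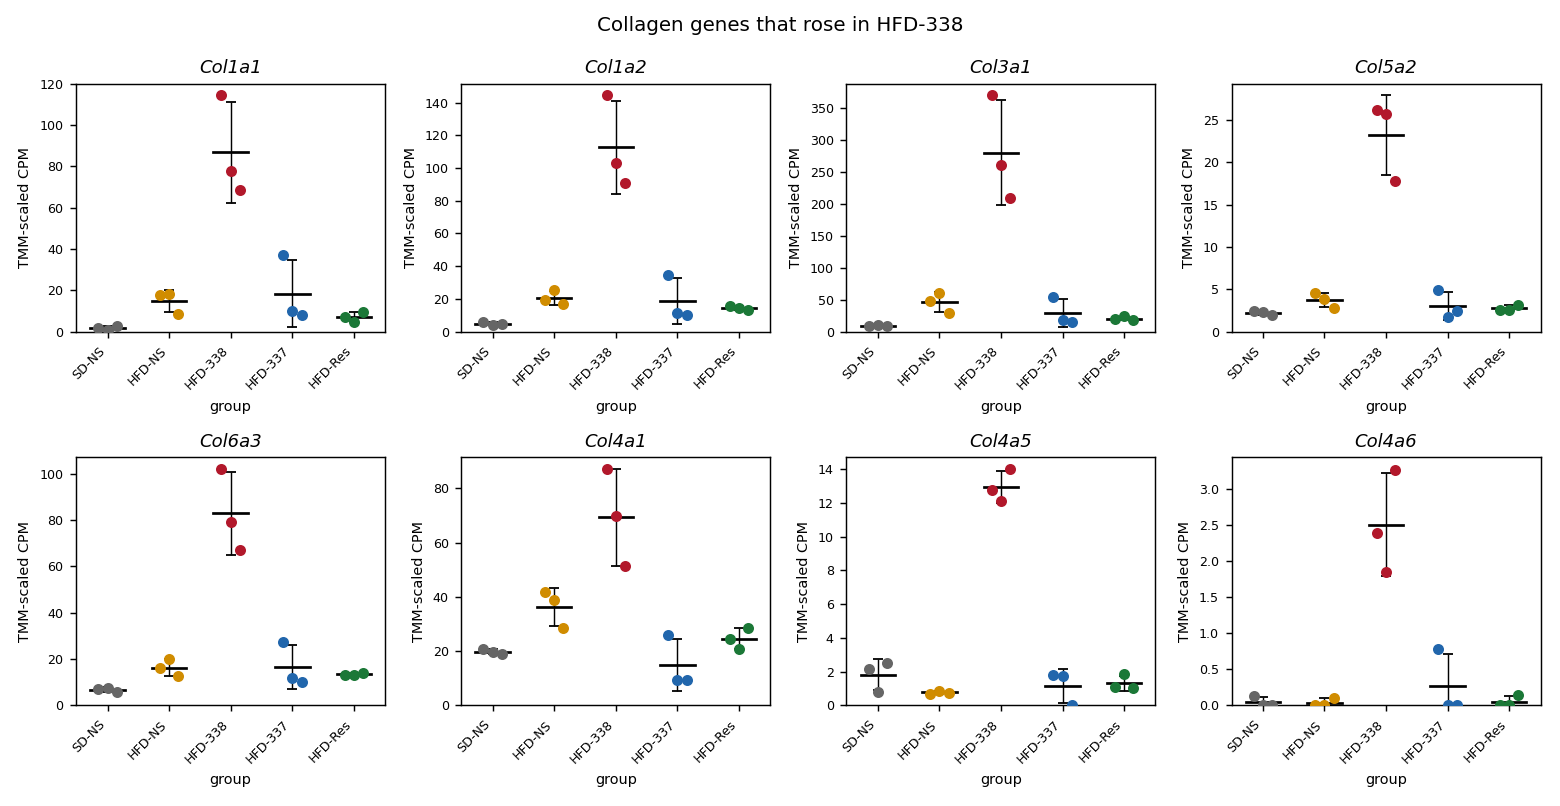
TMM-scaled CPM of 8 collagen genes with higher means in HFD-338 than in HFD-NS, by group. Col4a6 is shown without a test, as it passed the low-count filter through HFD-338 and had to be high there. Each point is 1 library, horizontal bars are means and whiskers are SDs over 3 libraries. In all 8 panels the HFD-338 libraries lie above every other library, and HFD-337 replicate 23 is the highest point of its group.

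Type VI collagen rose in all 3 of its tested chains. Col6a1 was at 44.4, 27.2 and 23.8 CPM in HFD-338 and 8.64, 10.1 and 7.27 in HFD-NS (log2FC 1.88, adjusted p = 0.00149). Col6a2 was at 24.3, 13.5 and 10.3 CPM against 3.15, 3.48 and 3.27 (log2FC 2.28, adjusted p = 5.87e-05). Col6a3 was at 102, 79.2 and 67.0 CPM against 15.997, 19.99 and 12.6 (log2FC 2.36, SE 0.282, adjusted p = 4.24e-05). Replicate 17 was again the highest library for each chain, and the groups did not overlap.

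Of the remaining classes, Col8a1, a network collagen of vessel walls, had a mean of 2.81 ± 1.03 CPM in HFD-338, against 0.353 ± 0.143 in HFD-NS, and no test is given because it passed the low-count filter through HFD-338. Col15a1 was at 11.5, 10.8 and 5.76 CPM against 2.34, 4.72 and 3.27 (log2FC 1.45, adjusted p = 0.00439). Col18a1 fell by a log2FC of 0.52, to 375, 367 and 417 CPM (SE 0.0968, adjusted p = 0.00037), overlapping the range of SD-NS. Col14a1, a FACIT member of portal and capsular matrix, was at 64.5, 59.99 and 38.3 CPM and overlapped HFD-NS at 49.2, 51.7 and 41.1 (log2FC 0.20, adjusted p = 0.564).

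Markers of other cells moved in the same libraries, where 18.9% of all genes rose and 17.9% fell against HFD-NS. Bile duct markers summed to 615 to 776 CPM in HFD-338, where HFD-NS had 69.4 to 82.0, and 9 of 9 tested rose. Spp1, which macrophages also make, gave most of that sum (586 CPM), while Epcam, an epithelial adhesion protein, averaged 19.6 CPM against 0.894. Krt7 and Cftr, at most 0.583 and 0.591 CPM in the other groups, passed the low-count filter through HFD-338 and had to be high there. Muc1 and Krt19, at most 1.58 and 1.84 CPM elsewhere, also needed HFD-338 libraries to pass. The count of 9 is partly set by the filter. Myofibroblast markers summed to 29.97 to 51.0 CPM against 14.4 to 18.5, with 4 of 8 risen. Of the 8, Fbln2 (at most 1.02 CPM in the other groups) passed the low-count filter through HFD-338 and had to be high there. Timp1 (at most 1.61 CPM elsewhere) also needed HFD-338 libraries to pass. Within that list Acta2 reached 0.916 to 4.10 CPM, Cnn1 was at 0 in 2 of the 3 HFD-338 libraries, and Thy1 lay between 2.72 and 2.85 CPM.

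Markers of quiescent stellate cells summed to 216 to 365 CPM in HFD-338, where HFD-NS had 337.5 to 348. Of these 12 markers 1 rose and 3 fell, against 18.9% and 17.9% of all genes. Vascular endothelial markers summed to 56.7 to 125 CPM against 97.2 to 127 and moved both ways, with Cd34 at 12.8 against 0.965 CPM (risen) and Ptprb at 35.8 against 69.0 CPM (fallen) on average. In all 2 of these 6 rose and 1 fell, against 18.9% and 17.9% of all genes. Among the 6, Ly6c1 (at most 1.01 CPM in the other groups) passed the low-count filter through HFD-338 and had to be high there. Sinusoidal endothelial markers were lower, at 161 to 276 CPM against 339.5 to 401 (8 of 12 fell, 17.9% of all genes). Mesothelial markers were higher, at 9.52 to 21.5 CPM against 2.45 to 3.85 (2 of 2 tested rose, 18.9% of all genes). Macrophage markers ran from 114 to 374 CPM against 124 to 162, with 4 of 8 risen (18.9% of all genes). The part of these cell types in the collagen changes of HFD-338 was not tested.

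HFD-337 was compared with HFD-NS, which is also the reference of HFD-338 and HFD-Res, so these comparisons share 3 libraries. Of the 24 tested collagens 2 rose and 4 fell, where 24.4% of all genes rose and 22.8% fell. The median log2FC was 0.11, against 0.03 for all genes. The 2 that rose were the fibrillar genes Col5a3 and Col27a1. Those that fell were Col4a1, the FACIT gene Col14a1, the transmembrane Col13a1 and the multiplexin Col18a1. These counts depended on HFD-337 replicate 23. Without it 2 rose and 11 fell of 24, where 21.9% of all genes rose and 21.4% fell.

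Col5a3, a less common chain of type V collagen (chromosome 9, 20681353 to 20726363), was at 134, 144 and 130.3 CPM in HFD-337, the 3 highest values of all libraries. Its mean was 3.69 times that of HFD-NS (log2FC 1.88, SE 0.170, adjusted p = 3.92e-07). Col27a1 (chromosome 4, 63133649 to 63253227) was at 66.7, 57.6 and 69.8 CPM, 2.65 times the mean of HFD-NS (log2FC 1.40, SE 0.255, adjusted p = 0.000576). For both genes the 3 HFD-337 libraries were close to each other and replicate 23 lay within their range. Both calls held in every alternative tried, with adjusted p up to 3.78e-05 for Col5a3 and 0.00751 for Col27a1.

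Col14a1 was at 24.6, 14.2 and 9.74 CPM in HFD-337, 34.2% of HFD-NS (log2FC -1.56, SE 0.278, adjusted p = 0.000533). Col13a1, a transmembrane collagen of cell contacts, was at 1.58, 0.922 and 1.42 CPM against 3.50, 4.97 and 3.58 (log2FC -1.66, SE 0.384, adjusted p = 0.00153). Col18a1 was at 416, 481 and 423 CPM, 79.4% of HFD-NS (log2FC -0.33, SE 0.0967, adjusted p = 0.00831). Every HFD-337 library was below every HFD-NS library for these 3 genes.

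Col4a1 was at 26.0, 9.22 and 9.34 CPM in HFD-337 against 41.7, 38.7 and 28.4 in HFD-NS (log2FC -1.33, SE 0.348, adjusted p = 0.00818). Its neighbour Col4a2 was at 15.6, 4.15 and 7.71 CPM against 15.8, 15.5 and 13.8 and was not called (log2FC -0.79, adjusted p = 0.075). In both genes replicate 23 was the highest library. Without it Col4a1 had a log2FC of -1.96 (adjusted p = 1.04e-05) and Col4a2 of -1.42 (adjusted p = 0.000362). Col4a5 was at 1.77, 1.73 and 0 CPM (log2FC 0.70, adjusted p = 0.331).

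Scar collagens did not pass the test in HFD-337. Col3a1 was at 53.8, 18.8 and 15.2 CPM there (log2FC -0.67, SE 0.434, adjusted p = 0.232), Col1a1 at 37.2, 10.03 and 7.92 (log2FC 0.28, SE 0.535, adjusted p = 0.702) and Col1a2 at 34.7, 11.2 and 9.94 (log2FC -0.17, SE 0.401, adjusted p = 0.76). The first value of each, replicate 23, lay within or above HFD-NS, and the other 2 lay below every HFD-NS library except replicate 26 for Col1a1, which was above the 8.64 CPM of HFD-NS replicate 16. Without replicate 23, 2 collagens rose and 11 fell of 24 tested, where 21.9% of 13420 genes rose and 21.4% fell. The 7 added falls were Col3a1 (log2FC -1.41, adjusted p = 0.00558), Col1a2 (log2FC -0.93, adjusted p = 0.0035), Col4a2, Col5a1 (-0.63), Col5a2 (-0.89), Col6a3 (-0.53) and Col16a1 (-0.996). Col1a1 was still not called, with a log2FC of -0.69 (adjusted p = 0.174).

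**Figure D4:**
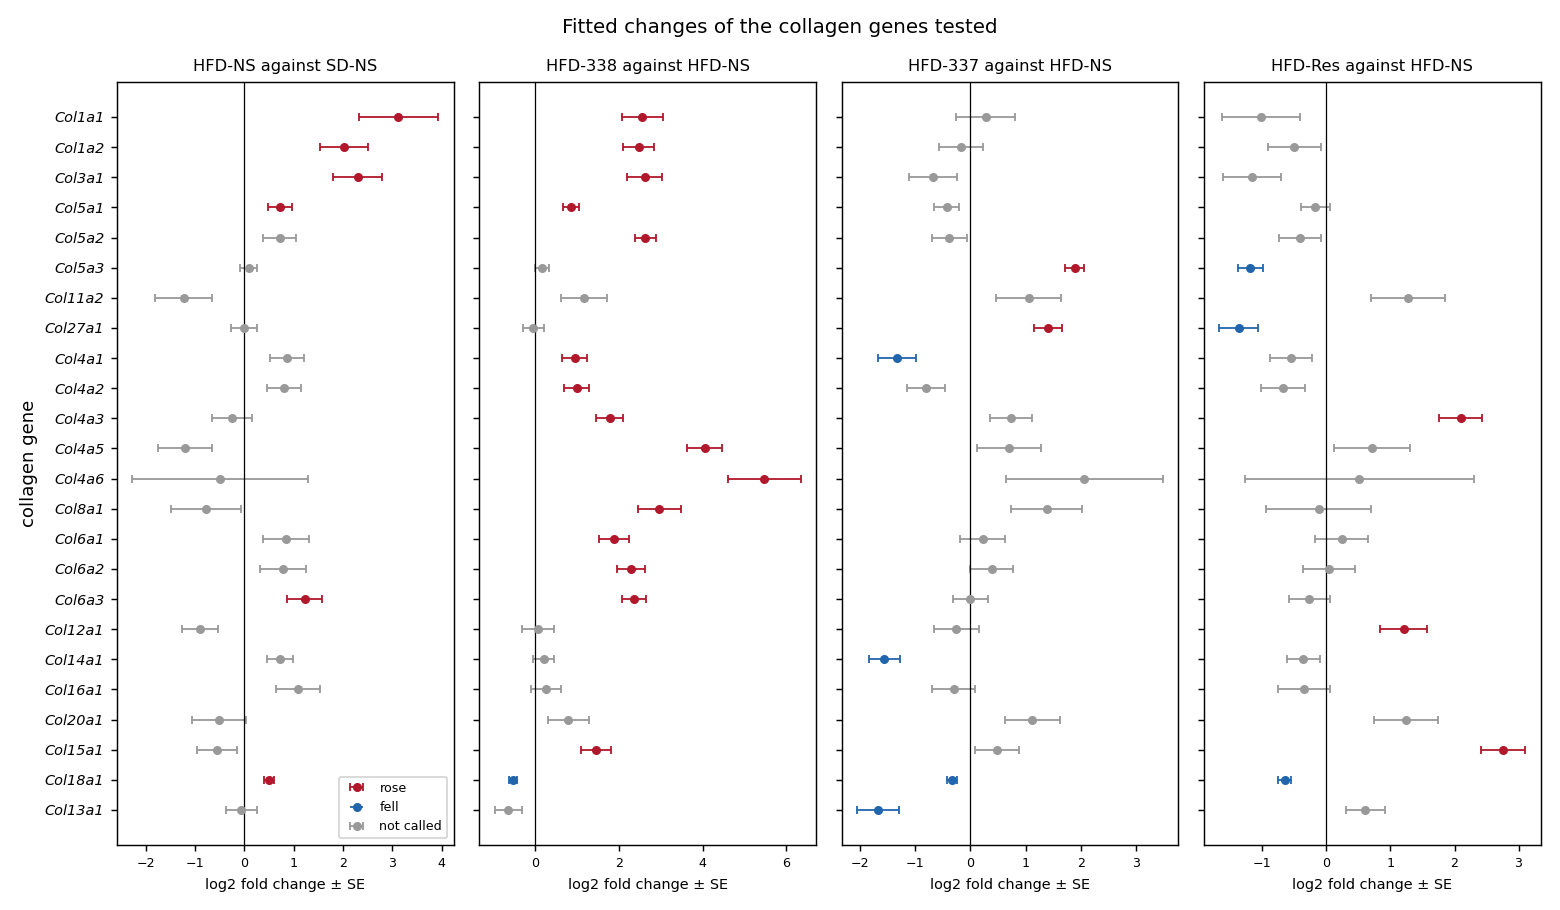
Fitted log2 fold changes of the 24 tested collagen genes with their standard errors in 4 comparisons, with a horizontal scale of its own in each panel. Red marks genes that rose, blue genes that fell and grey genes not called. In HFD-338 against HFD-NS 15 points are red, among them Col4a6 and Col8a1, which had to be high in HFD-338. HFD-337 and HFD-Res against HFD-NS show 2 and 3 red points.

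Several measures moved with the HFD-337 values. Genes of long genomic span were lower in this group: the median log2FC against HFD-NS was 0.34 over 3544 genes spanning under 10 kb, -0.03 over 8062 genes of 10 to 100 kb, -0.33 over 1028 genes of 100 to 200 kb and -0.56 over 555 genes of 200 kb or more. Of the tested collagens, 14 of 24 span at least 100 kb. The 4 that fell are among these (Col14a1 213 kb, Col13a1 141 kb, Col4a1 114 kb and Col18a1 114 kb). So is Col27a1, which rose (120 kb), while Col5a3 spans 45.01 kb. Among all genes 417 of 1028 of 100 to 200 kb and 254 of 555 of 200 kb or more fell. For collagens it was 3 of 11 and 1 of 3. Of the falls added without HFD-337 replicate 23, Col3a1, Col1a2, Col6a3 and Col16a1 span 38.2, 35.9, 77.1 and 51.4 kb. Col4a2, Col5a1 and Col5a2, the others added, span 136, 153 and 129 kb. In HFD-338 against HFD-NS the median stayed between -0.08 and 0.05 in all 4 span classes. The part of gene span in the HFD-337 changes was not tested.

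Markers of endothelial and quiescent stellate cells summed to less in HFD-337 than in HFD-NS. Over all genes 24.4% rose and 22.8% fell in this comparison. Sinusoidal endothelial markers summed to 113 to 140.4 CPM against 339.5 to 401 (12 of 12 fell). Vascular endothelial markers summed to 24.2 to 39.2 CPM against 97.2 to 127. Of these 6, 3 fell, and 2 were higher at an unadjusted p under 0.05 by edgeR. Quiescent stellate markers summed to 151 to 215 CPM against 337.5 to 348 (8 of 12 fell). Hgf and Reln, which are stellate cell products in liver, fell by a log2FC of 2.32 and 1.42. Myofibroblast markers gave 14.8 to 25.4 CPM against 14.4 to 18.5, with 0 of 8 called by edgeR, 1 risen by DESeq2 and 2 higher at an unadjusted p under 0.05. Bile duct markers summed to 87.7 to 268 CPM against 69.4 to 82.0 (3 of 9 rose and 1 fell). Macrophage markers gave 46.8 to 108 CPM against 124 to 162 (1 of 8 rose and 1 fell). Red blood cell markers gave 201 to 847 CPM against 187 to 288 (1 of 6 rose). Hepatocyte markers gave 94326 to 140412 CPM against 105881 to 122057 (2 of 8 rose and 3 fell). Mesothelial markers gave 1.22 to 4.13 CPM against 2.45 to 3.85 (1 of 2 fell). The part of these cells in the collagen values of HFD-337 was not tested.

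HFD-Res was compared with HFD-NS to describe collagens in the resmetirom group. Of the 24 tested, 3 rose and 3 fell, against 6.22% and 6.74% of all genes. The median log2FC was -0.22, and that of all genes was 0.01. Col15a1, Col4a3 and Col12a1 rose, and Col5a3, Col27a1 and Col18a1 fell.

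Col15a1, a multiplexin of basement membrane zones (chromosome 4, 47208012 to 47313165), was at 20.1, 29.4 and 20.8 CPM in HFD-Res and at 2.34, 4.72 and 3.27 in HFD-NS (log2FC 2.76, SE 0.341, adjusted p = 4.29e-05). The HFD-Res libraries were the 3 highest of the study. Col4a3 was at 6.64, 3.45 and 4.36 CPM against 1.05, 0.993 and 1.26 (log2FC 2.10, SE 0.333, adjusted p = 0.000223). Col12a1, a FACIT member, was at 4.28, 8.74 and 6.54 CPM against 3.74, 2.73 and 2.00 (log2FC 1.20, SE 0.361, adjusted p = 0.0327). The Col12a1 call was lost without HFD-NS replicate 13 or 16 or HFD-Res replicate 30 or 34 (adjusted p from 0.0883 to 0.153).

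Falls in HFD-Res were seen in 2 fibrillar genes and in Col18a1. Col5a3 was at 19.1, 19.1 and 11.5 CPM, 44.9% of HFD-NS (log2FC -1.18, SE 0.193, adjusted p = 0.000519). Col27a1 was at 7.28, 8.97 and 11.6 CPM, 38.0% of HFD-NS (log2FC -1.37, SE 0.303, adjusted p = 0.00852). All HFD-Res libraries of both genes lay below all libraries of the other 4 groups. Col18a1 was at 366, 336 and 357 CPM (log2FC -0.65, SE 0.0972, adjusted p = 0.000113). Hepatocyte markers were also lower in this group, at 75166 to 84541 CPM against 105881 to 122057 in HFD-NS, with Alb at 56127 against 82666 CPM. Of 8 hepatocyte markers 1 rose and 4 fell, against 6.22% and 6.74% of all genes. Their part in the fall of Col18a1 was not tested.

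**Figure D5:**
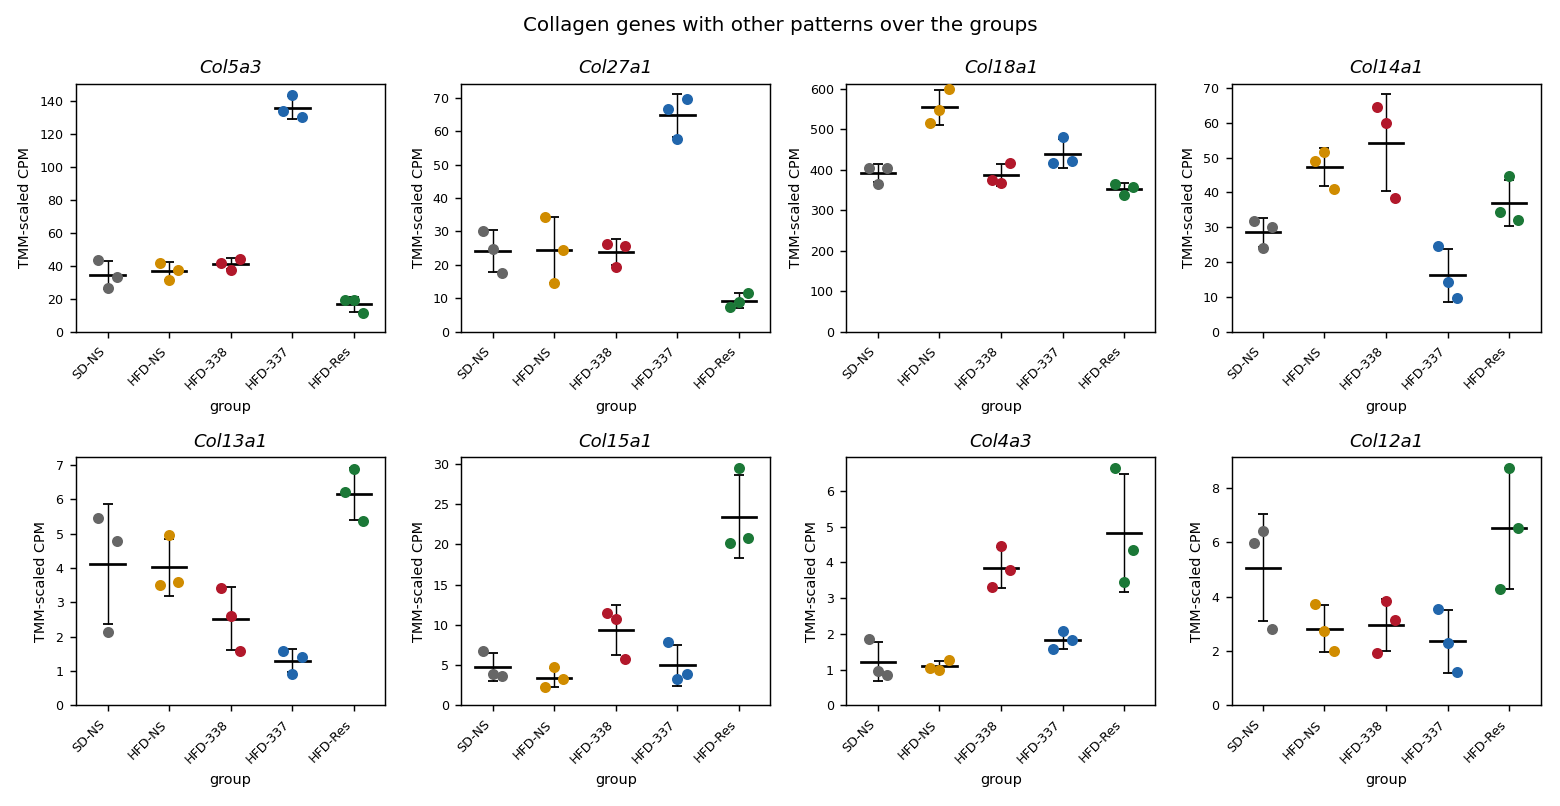
TMM-scaled CPM by group of 8 collagen genes with patterns other than a rise in HFD-338 alone. Each point is 1 library, horizontal bars are means and whiskers are SDs over 3 libraries. Col5a3 and Col27a1 are highest in HFD-337 and lowest in HFD-Res, Col18a1 is highest in HFD-NS, and Col15a1 is highest in HFD-Res.

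Scar collagens had lower means in HFD-Res than in HFD-NS without passing the test. Col3a1 was at 19.1, 23.9 and 18.7 CPM, all below the lowest HFD-NS library (log2FC -1.16, SE 0.454, adjusted p = 0.133). Col1a1 was at 6.85, 4.83 and 9.44 CPM and overlapped HFD-NS (log2FC -1.02, adjusted p = 0.338), and Col1a2 was at 15.6, 14.5 and 13.2 CPM (log2FC -0.50, adjusted p = 0.511). These values were above those of SD-NS in every library. Col13a1 was at 6.21, 6.90 and 5.38 CPM (log2FC 0.61, adjusted p = 0.227). Stellate markers summed to 345 to 406 CPM and myofibroblast markers to 11.5 to 13.5 CPM in this group. Against HFD-NS 0 of 12 and 0 of 8 were called by edgeR or DESeq2 (1 and 1 at an unadjusted p under 0.05). Over all genes 6.22% rose and 6.74% fell by edgeR.

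HFD-337 and HFD-338 both had low Stk25, and they were compared directly. Of the 24 tested collagens 2 rose and 17 fell in HFD-337 against HFD-338, where 28.8% of all genes rose and 29.6% fell. The median log2FC was -1.62, and that of all genes was 0.00. Col3a1 in HFD-337 averaged 10.4% of HFD-338 (log2FC -3.29, SE 0.441, adjusted p = 9.81e-05), Col5a2 13.03% (log2FC -3.01, adjusted p = 8.31e-08), Col6a3 19.9% (log2FC -2.36, adjusted p = 2.2e-05) and Col4a1 21.4% (log2FC -2.27, adjusted p = 0.000163). Without Col4a6 and Col8a1 2 rose and 15 fell of 22. By class, 4 of 4 type IV genes other than Col4a6, 3 of 3 type VI and 5 of 8 fibrillar genes fell. Col5a3 (log2FC 1.73, adjusted p = 6.18e-07) and Col27a1 (log2FC 1.44, adjusted p = 0.000363) rose.

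The direct difference was wider without HFD-337 replicate 23, with 2 rises and 18 falls. The falls include Col4a6 (log2FC -7.11) and Col8a1 (log2FC -2.22), which had to be high in HFD-338. With all libraries 28.8% of all genes rose and 29.6% fell, and the shares without replicate 23 are not given. Without replicate 23 Col3a1 had a log2FC of -4.02, Col1a2 of -3.39, Col1a1 of -3.24, Col4a1 of -2.90, Col4a2 of -2.41 and Col6a1 of -2.27. All counts of Col4a6 in HFD-337 came from replicate 23. Calls of Col13a1 (adjusted p = 0.0386) and Col15a1 (0.0293) were lost with some libraries left out. These were HFD-338 replicate 17 (0.176 and 0.108), replicate 18 (0.0695 and 0.0796), HFD-337 replicate 26 (0.183 and 0.158) and replicate 27 (0.0506 and 0.0807).

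HFD-338 against HFD-Res gave 15 rises and 3 falls of 24, where 22.2% of all genes rose and 20.9% fell. The median log2FC was 1.42, and that of all genes was 0.00. Without Col4a6 and Col8a1 13 rose and 3 fell of 22. Col3a1 averaged 13.6 times its level in HFD-Res (log2FC 3.78, SE 0.460, adjusted p = 8.94e-05) and Col1a1 12.3 times (log2FC 3.57, SE 0.567, adjusted p = 0.000536). The 3 falls were Col15a1 (log2FC -1.31, adjusted p = 0.00282), Col13a1 (log2FC -1.25, adjusted p = 0.00464) and Col12a1 (log2FC -1.13, adjusted p = 0.017). Col12a1 was lost without HFD-338 replicate 17 or HFD-Res replicate 30 (adjusted p = 0.0829 and 0.0848). Col4a6, which had to be high in HFD-338, had 61 counts against 1 in HFD-Res, a ratio of 39.6 given without a test.

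The 11 collagens with at least 10 counts that were not tested held 12 to 49 counts each over 15 libraries. Col28a1, a collagen of nerve sheaths, had 20 of its 21 counts in HFD-338, 1 in SD-NS and 0 in the other groups. Its pooled rate in HFD-338 was 7.10 times a floor of 3 counts over the HFD-NS group, which had 0. That floor covers the counting error of the 0 only, and the error of the 20 counts is not included. Col6a5 had 26 of 34 counts in HFD-338 and 2 in HFD-NS, a ratio of 13.9. Its HFD-338 libraries held 17, 1 and 8 counts, and without replicate 17 the ratio was 7.47. Col28a1 and Col6a5 reached 10 counts only through HFD-338 and had to be high there, so their values are descriptions without a test. Col4a4 had 29 of 48 counts in HFD-338 and 2 in HFD-NS, a ratio of 15.5 (95% exact counting interval 3.91 to 134). Col9a3 had 28 of 49 counts in HFD-338, and exons of this gene overlap Tcfl5 over 7.95% of their length. Col7a1, the anchoring fibril collagen, had 18 of 48 counts in SD-NS, and Col24a1 had 3 of 35 in HFD-338.

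Genes that act on collagen were taken from 6 lists by role. In HFD-338 against HFD-NS the lists had median log2FC values of 0.11 (modification and folding), 1.12 (processing and cross-linking), 0.94 (matrix proteins), 1.72 (receptors), 1.13 (proteases and inhibitors) and 0.78 (profibrotic signals), and in HFD-337 against HFD-NS of -0.46, -0.35, -1.09, -0.31, -0.62 and -0.49, where all genes had 0.00 and 0.03. Counts are to be read against the shares of all genes, 18.9% risen and 17.9% fallen for HFD-338 against HFD-NS, 24.4% and 22.8% for HFD-337, 6.22% and 6.74% for HFD-Res, and 12% and 16.1% for HFD-NS against SD-NS. Genes of these lists that passed the low-count filter through HFD-338 alone were not taken out of these counts. Without HFD-337 replicate 23, falls against HFD-NS went from 5 of 19 to 7 of 20, 2 to 4 of 12, 12 to 15 of 20, 2 to 4 of 10, 3 to 3 of 7 and 7 to 5 of 16, and the median of processing and cross-linking to -0.78. Enzymes and chaperones that modify and fold the chains moved both ways in HFD-338 against HFD-NS, with 8 of 19 tested risen (18.9% of all genes) and 4 fallen, the latter near the 17.9% of all genes. Plod2, a lysyl hydroxylase, rose from 1.79 ± 0.557 to 6.22 ± 1.54 CPM (log2FC 1.80, adjusted p = 0.00121), and Crtap, a subunit of the prolyl 3-hydroxylase complex, by a log2FC of 1.47. P4ha2, a catalytic chain of prolyl 4-hydroxylase, fell (log2FC -1.07), as did Plod1 (log2FC -0.61). In HFD-337 against HFD-NS 2 rose and 5 fell, the falls near the 22.8% of all genes. Among the falls were Sec23a (log2FC -0.97) and Mia3 (log2FC -0.87), which load procollagen into vesicles of the secretory pathway. Serpinh1, the collagen chaperone HSP47, rose in HFD-NS against SD-NS from 4.65 ± 1.05 to 18.1 ± 3.81 CPM (log2FC 1.91, adjusted p = 0.00055), 1 of 4 rises and 3 falls in that list.

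Enzymes that trim and cross-link fibres rose in 7 of 12 cases in HFD-338 against HFD-NS (18.9% of all genes) and fell in 1. Lox, the lysyl oxidase that starts cross-linking, averaged 5.30 ± 1.43 CPM against 1.00 ± 0.102 (log2FC 2.39, adjusted p = 0.000338), and its relatives Loxl1 and Loxl4 had log2FC values of 2.05 and 1.84. Bmp1, which removes the C-terminal propeptide of fibrillar chains, fell (log2FC -0.44, adjusted p = 0.00257). In HFD-337 against HFD-NS Loxl3 rose (log2FC 0.88) and Pxdn and Tgm2 fell (log2FC -0.88 and -0.52). HFD-NS against SD-NS gave 2 rises of 12, near the 12% of all genes, with Loxl1 among them (log2FC 1.37, adjusted p = 0.0444).

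Matrix proteins that bind collagen rose in 14 of 20 cases in HFD-338 against HFD-NS, with 1 fall (18.9% and 17.9% of all genes). The small proteoglycan Lum averaged 93.6 ± 37.6 CPM against 10.3 ± 3.82 (log2FC 3.19, adjusted p = 1.85e-05), and the elastic fibre protein Eln 16.3 ± 4.49 against 1.89 ± 0.173 (log2FC 3.11, adjusted p = 7.19e-06). Fn1, which hepatocytes also secrete into plasma, fell (log2FC -0.49). In HFD-337 against HFD-NS 1 rose and 12 fell (24.4% and 22.8% of all genes), with Nid1, which links laminin to type IV collagen, at 6.09 ± 2.92 CPM against 23.5 ± 4.33 (log2FC -2.00, adjusted p = 0.000199). Tnxb, which spaces fibrils, was the rise (log2FC 0.95).

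Receptors that bind collagen rose in 8 of 10 cases in HFD-338 against HFD-NS (18.9% of all genes). Ddr1, a collagen-activated kinase of epithelia, averaged 8.60 ± 0.775 CPM against 0.749 ± 0.434 (log2FC 3.52, adjusted p = 1.6e-07), and Mrc2, an endocytic receptor that takes up collagen, rose by a log2FC of 2.62. In HFD-337 against HFD-NS 2 fell, near the 22.8% of all genes: Itgb1 (log2FC -0.88) and Itga1 (log2FC -0.52), which pair as a collagen-binding integrin. Proteases and inhibitors of collagen breakdown rose in 5 of 7 cases in HFD-338 (18.9% of all genes), with the gelatinase Mmp2 at 26.8 ± 4.67 CPM against 2.15 ± 0.700 (log2FC 3.65, adjusted p = 2.62e-08). In HFD-337 1 of the 7 rose, the membrane collagenase Mmp14 (123 ± 18.1 CPM against 58.3 ± 9.43, log2FC 1.08, adjusted p = 5.19e-06), and 3 fell (24.4% and 22.8% of all genes), the collagenase Mmp13 and the inhibitors Timp2 and Timp3. The call of Mmp13 was lost without replicate 23 (adjusted p = 0.128).

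Profibrotic signals and their receptors rose in 12 of 16 cases in HFD-338 against HFD-NS (18.9% of all genes). The ligand Tgfb2 averaged 4.88 ± 0.492 CPM against 0.549 ± 0.553 (log2FC 3.14, adjusted p = 0.000106), and the platelet-derived growth factors Pdgfd and Pdgfc rose by log2FC values of 2.76 and 2.06. In HFD-337 against HFD-NS 1 rose, Pdgfa (log2FC 1.32), and 7 fell (24.4% and 22.8% of all genes), among them the receptor Tgfbr2 (log2FC -1.67, adjusted p = 5.1e-07) and Tgfb1 (log2FC -1.005). In HFD-Res against HFD-NS 3 rose and 1 fell in this list (6.22% and 6.74% of all genes), the falling gene being the signal transducer Smad3 (log2FC -0.50). Over the other 5 lists the only call in HFD-Res was a fall of Mia3 (log2FC -0.50, adjusted p = 0.00671).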

How the data were processed

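Members and gene lists were chosen with earlier results of these data known. The 15 liver libraries were made from poly(A)-selected RNA, per the labels' protocols. The deposited counts are whole reads per gene in exons, made by the authors with featureCounts 2.0.1, without strand and with a read counted for each gene it overlaps, on an mm39 annotation, per the file headers. The submitters' processing notes also name Trim Galore 0.6.10, STAR 2.7.10b and Bowtie 1.3.1. Their roles are not given in the sources used here. The deposited exon length per gene (score, in bases) gave TPM and was otherwise not used, and the deposited TPM table was not used here. Libraries were grouped by title.

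Genes kept by filterByExpr (13189) were scaled by TMM and fitted in 1 model of all libraries with edgeR 4.0.16 (R 4.3.3), by the robust quasi-likelihood test with Benjamini-Hochberg adjustment over all genes and a threshold of 0.05. The SE is the size of the log2 fold change divided by the square root of F. The floor for a group at 0 is 3 counts over the group, and intervals cover counting error only. Reads carry no molecular identifiers in the files. The common biological coefficient of variation was 0.134. On simulated counts for HFD-337 against HFD-NS (12913 genes, 200 changed), 74.7% of 2-fold and 34.0% of 1.5-fold changes were recovered, and 6.96% of calls were false.

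Any collagen could be named. From each list up to 3 called genes per direction and comparison could be named, those with the largest change among genes averaging at least 1 CPM. Marker gene Tf is absent from the table under that symbol. Alternatives were RLE size factors, no filter beyond 10 counts, DESeq2 1.42.0, limma-voom (limma 3.58.1), fits of 2 groups alone, limma on log2 of TPM plus 1, and leaving out each library. Added after seeing the data were HFD-337 sums and lists without replicate 23, counts without Col4a6 and Col8a1, and low-count ratios without HFD-338 replicate 17.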

Additional observations from a re-analysis of the deposited data

How the results depend on the processing

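Of 841 values of called collagens under alternatives, 802 kept their call, 39 lost it and 0 changed direction. For HFD-NS against SD-NS, 6 collagens were called, 12 in a fit of these 2 groups alone, 11 by limma-voom, and 3 to 6 with 1 library left out. Over all genes the main fit of this comparison gave 1589 rises and 2122 falls. The fit of 2 groups gave 1957 and 1988, and limma-voom 1735 and 2478. For HFD-337 against HFD-NS, 6 were called, and 6 to 13 with 1 library left out, the 13 being without HFD-337 replicate 23. The cause was not tested. In HFD-Res against HFD-NS 3 rose and 3 fell, but 1 and 3 with TPM, where fewer collagens (18) were tested, and 3 and 6 in a fit of 2 groups, where Col3a1 fell too (adjusted p = 0.0305). Over all genes 820 rose and 889 fell in HFD-Res, 657 and 783 with TPM and 797 and 878 in the fit of 2 groups. With 1 library left out the other counts ran from 14 to 17 (HFD-338 against HFD-NS), 5 to 6 (HFD-Res against HFD-NS), 16 to 20 (HFD-337 against HFD-338) and 17 to 19 (HFD-338 against HFD-Res). Col1a1 and Col1a2, not called in HFD-337 against HFD-NS, had no stable direction. Col1a1 went from 0.28 to -0.15 by limma-voom, -0.054 with TPM, and with 1 library left out it ran from -0.69 to 0.62, with -0.01 without HFD-NS replicate 16 and -0.69 without HFD-337 replicate 23. With 1 library left out Col1a2 ran from -0.93 to 0.13, with 0.01 without HFD-NS replicate 13, 0.13 without HFD-337 replicate 26 and 0.07 without replicate 27. Calls lost by tool or unit were Col5a1 in HFD-NS against SD-NS with TPM (adjusted p = 0.0788), Col4a1 in HFD-337 against HFD-NS in a fit of 2 groups (0.0554), Col27a1 in HFD-Res by limma-voom (0.0508), and Col13a1 and Col15a1 in HFD-337 against HFD-338 in a fit of 2 groups (0.0615 and 0.0621), with Col13a1 also by limma-voom (0.0666). TPM moved the median of all genes by 0.11 in HFD-NS against SD-NS, -0.14 in HFD-337 and 0.13 in HFD-338 against HFD-NS, -0.27 in HFD-337 against HFD-338 and 0.13 in HFD-338 against HFD-Res, so TPM sums hold these shifts. Without the low-count filter Col4a4 and Col9a3 also rose in HFD-338 against HFD-NS. That setting still required a minimum total count, which Col6a5 and Col28a1 reached only through HFD-338. Both had to be high there, so no test is given for them. No paired analysis was possible because the groups share no replicate number. Collagens at a few counts per library, and changes near 1.5-fold, are at the limit of this depth.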

Other observations

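Ratios between collagen chains are given here as values. The ratio of Col1a1 to Col1a2, computed per exon length, averaged 0.332 ± 0.190 in SD-NS, 0.632 ± 0.170 in HFD-NS, 0.675 ± 0.0185 in HFD-338, 0.812 ± 0.124 in HFD-337 and 0.436 ± 0.173 in HFD-Res. The ratio of Col3a1 to Col1a1 was 3.36 ± 0.405 in HFD-NS and 3.44 ± 0.163 in HFD-338, but 1.54, 2.00 and 2.05 in the HFD-337 libraries, below each library of both groups. The ratio of Col4a1 to Col4a2 averaged 2.32 ± 0.571 in SD-NS, 2.33 ± 0.299 in HFD-NS, 2.26 ± 0.223 in HFD-338, 1.65 ± 0.493 in HFD-337 and 2.60 ± 0.165 in HFD-Res. The ratio of Col4a5 to Col4a1 averaged 0.0942 ± 0.0493 in SD-NS, 0.0222 ± 0.00475 in HFD-NS, 0.202 ± 0.0676 in HFD-338 and 0.0574 ± 0.0293 in HFD-Res. It was 0.0697, 0.192 and 0 in the HFD-337 libraries, of which replicate 26 lay within the range of HFD-338. These ratios were not tested between groups.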
